A study of Mus musculus with 2 samples.

Results

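Histone acetylation is written by acetyltransferases, removed by deacetylases and read by proteins with acetyl-lysine binding domains. A set of 29 genes of this system was examined on 2 Affymetrix 3' expression arrays, of the 18193 genes named on them. The genes were taken by symbol or synonym from probe sets whose annotation names that gene alone. They comprised 10 acetyltransferases, 11 zinc-dependent deacetylases, 4 corepressors, 2 bromodomain readers and 2 chaperones of histones H3 and H4. Of the 29, 28 had at least 1 such probe set and 27 were measured, which means that the brightest probe set lay above a floor of 60.5 signal units on at least 1 array. Of all named genes, 63.5% were measured. Hdac9 was under the floor on both arrays, and Ncor1 was not analysed here because no probe set used named it.

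One array held total RNA of mouse hematopoietic stem cells (HSC, the marrow cells that renew themselves and give rise to all blood lineages) with the genotype SIRT6 knockout. The other array held RNA of wild-type HSC. Mice of both genotypes were 3 months old, and each genotype had 1 array. The labels do not say how or in which cells the allele was disrupted, how HSC were sorted or whether animals were pooled. Without replicates there is no test between genotypes, so each value compares these 2 RNA samples only.

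Sirt6 is itself a deacylase of histones, dependent on NAD and so outside the zinc-dependent family. Acetylation of lysines in histone tails loosens the hold of histones on DNA and creates binding sites for bromodomains, and it marks active promoters and enhancers. Class I deacetylases such as Hdac1, Hdac2 and Hdac3 act in nuclear complexes, including those built on the scaffold Sin3a, on Rcor1 or on nuclear receptor corepressors. Those of class IIa shuttle between nucleus and cytoplasm and have weak catalytic activity of their own. In blood stem cells, Kat6a and Crebbp are known as acetyltransferases needed for normal HSC function in mice.

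The single Sirt6 probe set read 174 on the array labelled knockout and 124 in wild type, a log2 ratio of 0.49. Where it lies relative to any deleted exons is unknown here, so it does not check the genotype, and directions below rest on the label. Median signals were 60.7 for the array labelled knockout and 60.8 for wild type. Probe sets of 1 gene differed in log2 ratio with an SD of 0.22 over 4632 genes. This spread lies within the same 2 RNA samples and holds no error between animals. HSC markers were present on both arrays: 14 of 16 listed had a probe set and all 14 were measured, although 8 of them had at least 1.5-fold less signal on the array labelled knockout.

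Most histone acetylation genes had nearly the same signal on both arrays. Of the 27 measured genes, 25 differed by less than 1.5-fold, with log2 ratios (labelled knockout minus wild type) from -0.31 to 0.31. At least 1.5-fold higher on the array labelled knockout were 0 genes, while 1.71% of the 11547 genes measured in all were. In the lower direction there were 2, the deacetylase gene Hdac11 and the corepressor gene Rest, where 2.63% of all measured genes were. Taking both directions, 4.35% of all measured genes differed by that much. Ratios were above 0 for 13 genes and below 0 for 14. Where the second-brightest probe set above the floor was taken instead, neither Rest (-0.0022) nor Hdac11 (-0.39) passed 1.5-fold and Crebbp (-0.69) did. This choice was made after seeing the data, and genes without such a second probe set kept their brightest. On the brightest probe sets, the median log2 ratio was -0.0064, and that of all measured genes was 0.0023.

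The ratios lay close together apart from the 2 lower genes. Within 0.2 of 0 on the log2 scale were 22 of 27 genes (81.5%), and 67.8% of all measured genes lay in that range. These shares were not matched for signal, and ratios spread more widely among dim genes. The SD of the log2 ratio over the 27 genes was 0.34, wider than the 0.27 over all measured genes. Without Rest and Hdac11 it was 0.14. These were left out for the size of their ratios, so a smaller SD follows and is not comparable with 0.27. Only those 2 genes lay outside the middle 95% of measured genes of like brightness (mean log2 signal within 0.5). The range for genes as bright as Hdac11 was -0.64 to 0.47, and for genes as bright as Rest -0.48 to 0.44. It was -0.77 to 0.64 for genes as dim as Hdac8 and -0.26 to 0.33 for genes as bright as Hdac2.

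**Figure D1:**
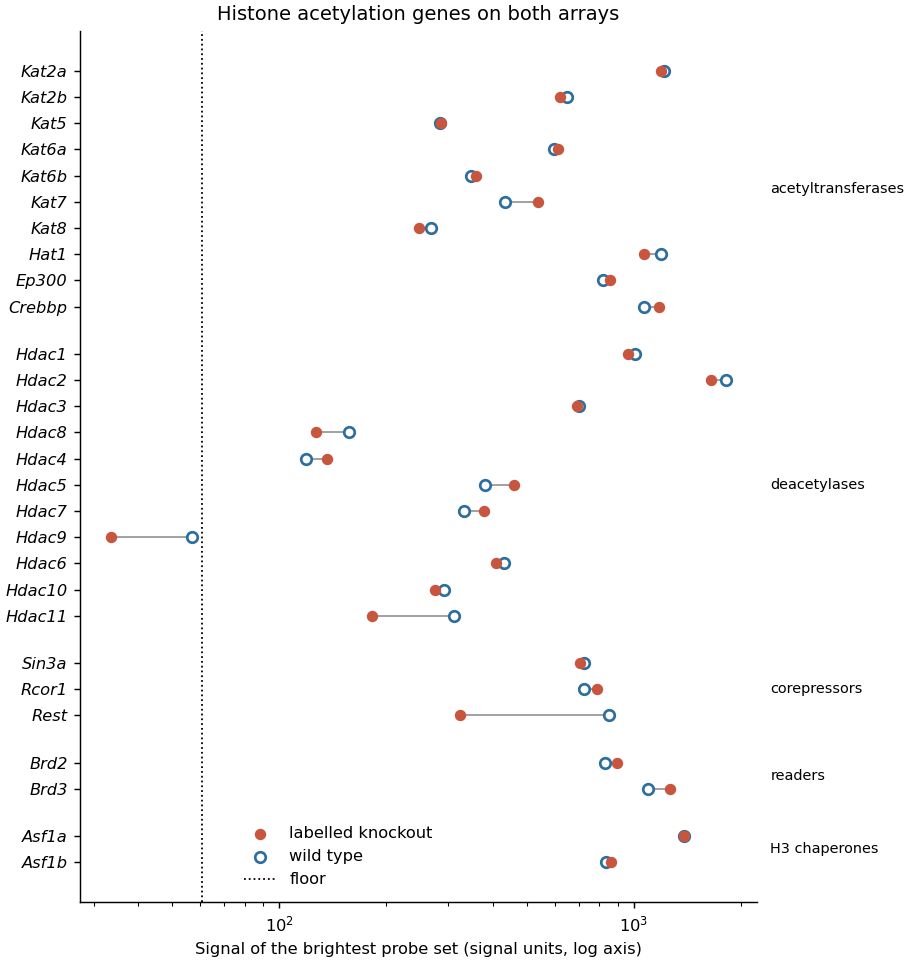
Signal of the brightest probe set of each of the 28 genes with a probe set, on a logarithmic axis in signal units. Filled points are the array labelled knockout, open points are wild type, and the dotted line is the floor of 60.5. The 2 points of most genes nearly coincide, while those of Rest (324 against 852) and Hdac11 (183 against 312) lie apart and Hdac9 lies under the floor.

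Among the acetyltransferases, all 10 genes were measured and 0 differed by 1.5-fold, with a median log2 ratio of 0.03. Hat1, which acetylates newly made histone H4 before it is assembled into chromatin, read 1067 on the array labelled knockout and 1195 in wild type (log2 -0.16). Kat2a, the catalytic subunit of the SAGA complex, read 1193 against 1220 on the brightest of its probe sets (-0.03). The others read 308 against 276 (0.16) and 172 against 138 (0.32). The 3 probe sets of Kat2a thus gave ratios on both sides of 0. Its paralog Kat2b read 619 on the array labelled knockout and 648 in wild type (-0.07).

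The MYST family members stayed near equal signal, with 4 of 5 ratios above 0 on the brightest probe sets. Kat7, which acetylates histone H3 and H4 with Brpf and Jade scaffold proteins, had the highest ratio of the 27 genes, at 537 on the array labelled knockout against 434 in wild type (0.31). Its other probe sets read 102 against 120 (-0.24) and 84.4 against 80.4 (0.07), so the probe sets did not share a direction. Kat5, the catalytic subunit of the Tip60 complex, read 287 against 284 (0.02), with -0.13 on its other probe set. Kat6a read 613 against 595 (0.04) and Kat6b 360 against 347 (0.05), with -0.09 on a second Kat6b probe set. A second Kat6a probe set was above the floor in wild type only, at 45.9 on the array labelled knockout and 67.1 in wild type. Kat8, which acetylates lysine 16 of histone H4, read 248 against 268 (-0.11). With the median over probe sets, Kat7 stayed above 0 (0.07), while Kat5 (-0.06), Kat6a (-0.05) and Kat6b (-0.02) were below it. Direction in this family thus depended on the probe set taken.

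Ep300 and Crebbp, the paired coactivators that acetylate H3 at enhancers, were slightly higher on their brightest probe sets. Ep300 read 857 on the array labelled knockout and 819 in wild type (0.07), and Crebbp read 1181 against 1066 (0.15). The Crebbp probe sets disagreed: another gave 300 against 287 (0.06), and one more gave 398 against 641 (-0.69), past 1.5-fold in the lower direction. The fourth lay under the floor on both arrays, at 25.9 against 19.4. The highest and lowest Crebbp ratios above the floor were 0.83 apart, a spread reached by 3.63% of the 4632 genes with 2 or more probe sets that each lay above the floor on both arrays. The Crebbp level is therefore given here with no direction.

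Among the deacetylases, all 4 class I genes had ratios below 0 (median -0.10) and were under 1.5-fold. Hdac1 read 965 on the array labelled knockout and 1005 in wild type (-0.06). Its close paralog Hdac2 read 1653 against 1821 (-0.14) on one probe set and 323 against 347 (-0.10) on another. These Hdac2 ratios lay within 0.04 of each other, and the last Hdac2 probe set was under the floor, at 49.6 against 35.8. Hdac3, the catalytic subunit of the nuclear receptor corepressor complex, read 693 against 703 (-0.02). Hdac8, which also deacetylates cohesin, read 127 against 157 (-0.31), the lowest ratio under 1.5-fold.

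The 3 measured class IIa genes had ratios above 0 (median 0.19), also all under 1.5-fold. Hdac5 read 459 on the array labelled knockout and 382 in wild type (0.27). Hdac7, a regulator of lymphoid genes in mice, read 378 against 333 (0.19) and 204 against 177 (0.21) on probe sets from the same source sequence, which are not independent. Hdac4 read 136 against 119 (0.19) on one probe set and 106 against 125 (-0.25) on another, with opposite signs, and 35.0 against 33.9 on its last, which was under the floor. Hdac9, the fourth class IIa gene, read 33.6 against 56.8 and 23.8 against 21.8, all under the floor, so no fold is given. Whether the classes differ was not tested, and every ratio in classes I and IIa lay inside the middle 95% of genes of like brightness.

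Hdac6 and Hdac10, of class IIb, act mainly in the cytoplasm. Hdac6, a tubulin deacetylase, read 408 on the array labelled knockout and 432 in wild type (-0.08). Hdac10, a polyamine deacetylase, read 274 against 292 (-0.09). Hdac11, the single class IV enzyme and an efficient remover of long-chain fatty acyl groups, was the deacetylase with the largest difference. It read 183 on the array labelled knockout and 312 in wild type (log2 -0.77, or 1.71-fold lower). Its second probe set read 86.6 against 113 (-0.39), lower in the same direction but under 1.5-fold. Among all genes with exactly 2 such probe sets, 32.2% had both lower.

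**Figure D2:**
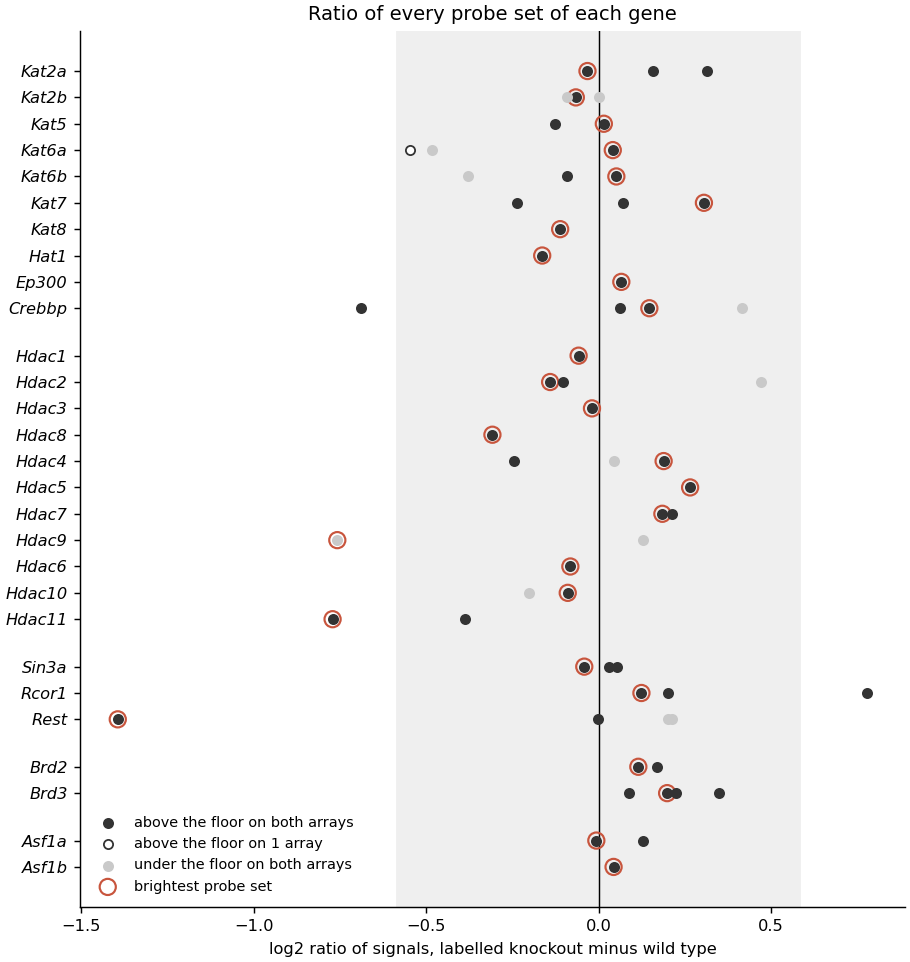
The log2 ratio (labelled knockout minus wild type) of each of the 62 probe sets of these genes, with genes in rows. Black points lie above the floor on both arrays, open points on 1 array and grey points on none, a red ring marks the brightest probe set, and the grey band is less than 1.5-fold. Of the 49 black points, 4 lie outside the band: Rest (-1.39), Hdac11 (-0.77), Crebbp (-0.69) and Rcor1 (0.78).

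Of the corepressor genes, Rest had the largest difference, and its probe sets disagreed. Rest encodes a zinc finger repressor that silences neuronal genes in other tissues and recruits Sin3a through one end and Rcor1 through the other. The Rest probe set 1425565_at read 324 on the array labelled knockout and 852 in wild type (log2 -1.39, or 2.63-fold lower). At least 2-fold lower were 0.572% of all measured genes. A second probe set, 1428227_at, designed on another source sequence, read 502 against 503 (-0.0022), which is nearly equal. The remaining 2 Rest probe sets, from the same source sequence as the first, lay under the floor everywhere, at 42.7 against 37.2 and 42.5 against 36.6.

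The spread of 1.39 between the Rest probe sets was reached by 0.518% of those 4632 genes. Which part or isoform of the transcript each probe set reads is unknown here, so no level of Rest as a whole is stated. Genes that Rest is known to repress in neurons and other tissues were mostly not detected. Of 22 listed, 21 had a probe set, 18 lay under the floor on both and 3 were measured. Gria2, a glutamate receptor subunit, read 130 on the array labelled knockout and 106 in wild type (0.30), and the adhesion receptor gene Celsr3 read 79.0 on the array labelled knockout and 34.8 in wild type. The wild-type value lies under the floor, so Celsr3 was at least 1.31-fold higher. Rundc3a read 250 against 261 (-0.07).

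Rcor1, the scaffold that joins Hdac1 and Hdac2 to the demethylase Kdm1a, was higher on all 3 probe sets, but by unequal amounts. The brightest read 789 on the array labelled knockout and 724 in wild type (0.12), and a second from the same expressed sequence read 428 against 373 (0.20). The last, made from another expressed sequence, read 477 against 278 (0.78), past 1.5-fold. All 3 were therefore higher, and 20.7% of genes with 3 such probe sets had all of them higher. Sin3a read 704 against 725 (-0.04), 266 against 257 (0.05) and 149 against 146 (0.03), a spread of 0.09 over 3 probe sets from the same source sequence.

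**Figure D3:**
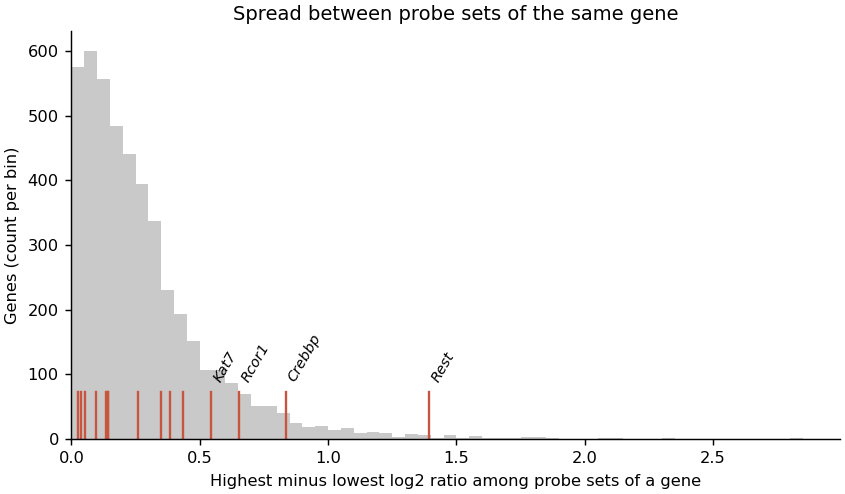
Spread between probe sets of the same gene, as the highest minus the lowest log2 ratio, for the 4632 genes with 2 or more probe sets that each lay above the floor on both arrays (grey bars, count of genes per bin). Red marks are the 15 histone acetylation genes among them, of which Rest (1.39), Crebbp (0.83), Rcor1 (0.65) and Kat7 (0.54) lie farthest right.

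Brd2 and Brd3, bromodomain proteins that bind acetylated histone tails and help recruit the transcription machinery, were slightly higher on all 6 of their probe sets. Brd2 read 899 on the array labelled knockout and 830 in wild type (0.12), and 889 against 791 (0.17). The 4 Brd3 probe sets read 1262 against 1100 (0.20), 424 against 363 (0.22), 283 against 266 (0.09) and 227 against 178 (0.35). All differences were under 1.5-fold. Of all genes with 4 such probe sets, 13.5% had all 4 higher, and of those with 2, 29.8% had both higher. Of the 4 Brd3 probe sets, 3 derive from the same expressed sequence, so they are not independent.

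The H3-H4 chaperones did not differ by 1.5-fold. Asf1a, which hands H3 and H4 to the assembly factors, read 1382 on the array labelled knockout and 1388 in wild type (-0.0064), and 137 against 125 (0.13) on its second probe set. Asf1b, the paralog expressed mainly in proliferating cells, read 862 against 836 (0.04). Both genes thus had nearly equal signal. Of 14 measured proliferation genes, 0 were higher and 1 was lower by 1.5-fold, with a median of 0.06. Their signals summed to 39718 on the array labelled knockout and 39028 in wild type. Tyms (-0.62), Ccne1 (0.48) and Rrm2 (0.22) had the largest ratios among them.

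Counted over probe sets, 49 of 62 were above the floor on both arrays, 27 of them higher and 22 lower on the array labelled knockout. At least 1.5-fold higher was 1 (Rcor1), against 1.52% of all 18393 such probe sets, and lower were 3 (Rest, Hdac11 and Crebbp), against 3.22%. Of the 15 genes with at least 2 of these probe sets, 7 had all of them pointing the same way, where 52.4% of all such genes did. The 7 were Rcor1, Brd2, Brd3 and Hdac7 toward higher signal and Rest, Hdac11 and Hdac2 toward lower. For Rest this holds by sign only, since one of its ratios was -0.0022.

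**Figure D4:**
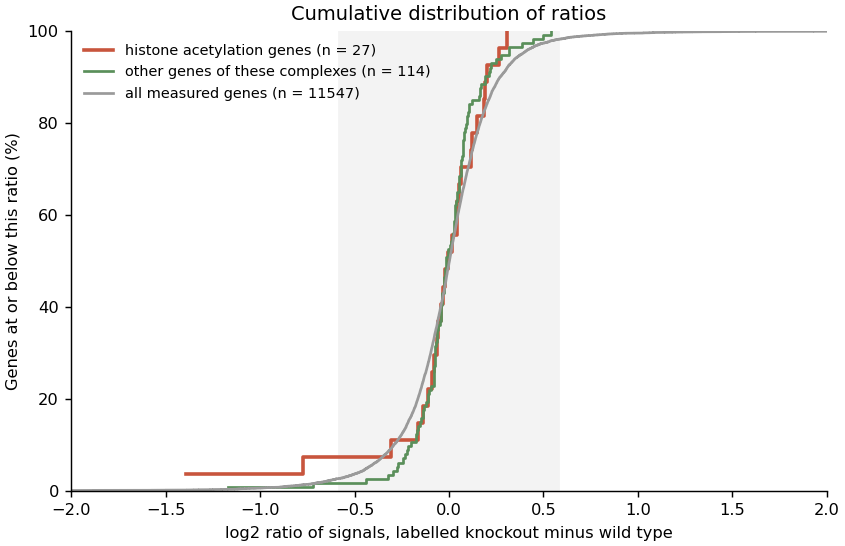
Cumulative percentage of genes at or below each log2 ratio (labelled knockout minus wild type), for the 27 histone acetylation genes, 114 other genes of the same system and all 11547 measured genes. The 114, named in the legend as of these complexes, are complex subunits, coactivators, acetyl-lysine readers and H3-H4 chaperones. The curves cross near 0, and the 2 steps at the lower left are Rest (-1.39) and Hdac11 (-0.77).

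Promoter windows of these genes were compared with those of other genes. RefSeq windows (GRCm38.p6, 250 bases before to 50 after a start) were at hand for 24 of the 29 genes, 36 windows in all. Those of Kat6a, Hdac1, Hdac3, Hdac10 and Rest were not used here. For each gene the window with the most CG dinucleotides was taken. The 22 measured genes had a median of 29.5 CG dinucleotides (6 to 49). The median was 22 over 9391 measured genes and 8 over 5061 named genes under the floor on both arrays. Hdac9, the gene under the floor, had 3 in one window and 0 in the other. The windows below show Hdac11, lower on both probe sets, the readers Brd2 and Brd3, higher on all probe sets, and the unmeasured Hdac9. CG dinucleotides are in capitals.
Hdac11, chr6:91156565-91156864, plus strand, 22 CG dinucleotides: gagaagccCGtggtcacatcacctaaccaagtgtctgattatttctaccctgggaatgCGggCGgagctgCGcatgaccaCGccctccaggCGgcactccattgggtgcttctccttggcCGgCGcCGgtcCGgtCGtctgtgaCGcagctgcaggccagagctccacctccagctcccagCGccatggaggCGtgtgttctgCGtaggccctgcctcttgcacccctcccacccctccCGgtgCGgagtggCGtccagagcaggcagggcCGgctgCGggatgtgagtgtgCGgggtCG
Brd2, chr17:34122558-34122857, minus strand, 32 CG dinucleotides: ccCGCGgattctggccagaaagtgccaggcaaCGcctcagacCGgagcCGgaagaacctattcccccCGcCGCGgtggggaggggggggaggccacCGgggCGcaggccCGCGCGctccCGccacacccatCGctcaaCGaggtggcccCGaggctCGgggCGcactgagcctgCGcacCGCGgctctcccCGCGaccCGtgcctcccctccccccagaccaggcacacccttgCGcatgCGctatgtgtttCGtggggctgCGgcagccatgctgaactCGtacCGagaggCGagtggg
Brd3, chr2:27475349-27475648, minus strand, 46 CG dinucleotides: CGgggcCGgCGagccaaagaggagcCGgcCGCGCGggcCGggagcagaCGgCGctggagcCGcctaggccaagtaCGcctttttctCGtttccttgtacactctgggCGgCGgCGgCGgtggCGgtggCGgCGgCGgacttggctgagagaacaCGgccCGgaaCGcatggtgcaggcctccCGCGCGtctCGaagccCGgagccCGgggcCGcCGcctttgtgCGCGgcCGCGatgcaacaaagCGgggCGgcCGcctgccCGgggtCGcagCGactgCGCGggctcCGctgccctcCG
Hdac9, chr12:34528840-34529139, minus strand, 3 CG dinucleotides: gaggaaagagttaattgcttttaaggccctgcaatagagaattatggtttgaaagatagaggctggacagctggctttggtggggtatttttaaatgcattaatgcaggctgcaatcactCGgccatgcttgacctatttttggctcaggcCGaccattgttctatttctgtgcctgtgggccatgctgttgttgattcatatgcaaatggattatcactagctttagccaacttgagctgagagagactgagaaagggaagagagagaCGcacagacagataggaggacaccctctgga

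Short motifs were searched on both strands of the 36 windows. The GC box, GGGCGG, bound by Sp1-type factors, was present in 23 (63.9%), against 35.7% of all 32851 windows. It was in the Hdac11 and Brd3 windows shown and not in the Brd2 or Hdac9 windows shown. The other windows of Brd2 did hold it, and the other window of Hdac9 did not. The letters CCAAT were in 44.4% of the windows and 37.4% of all, and TATAAA was in 5.56% against 13.6%. The windows with TATAAA belonged to Hdac8 and Hdac9. The Ets-type motif CCGGAAG was in 16.7% of the windows, including the Brd2 window shown, against 8.86% of all. The GC box and the Ets-type motif contain CG, windows of one gene can overlap, and a match of letters is not a binding site. All 32851 windows include those of genes under the floor, which had fewer CG dinucleotides, and no motif share over measured genes alone was taken.

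Other genes of this system, namely complex subunits, coactivators, acetyl-lysine readers and H3-H4 chaperones, were mostly near equal on their brightest probe sets. Of 123 listed, 114 were measured, 0 were higher (1.71% of all genes) and 2 lower (2.63% of all genes) by 1.5-fold, with a median of -0.02. Of 128 dimmer probe sets of 68 of these genes, all above the floor on both arrays, 2 were higher and 15 lower by 1.5-fold. They ranged from -1.22 (Chd4) to 1.43 (Baz2a). Among such further probe sets of all measured genes, 1.47% were higher and 4.51% lower. Among 39 measured acetyltransferase complex subunits and coactivators, 0 differed by 1.5-fold (median -0.04). Tada2b, an adaptor of SAGA, had the largest ratio, at 101 on the array labelled knockout and 71.7 in wild type (0.50). Meaf6 followed at -0.27 (0.10 on its other probe set), Supt7l at 0.27 and Jade2 at -0.27. Among 34 measured deacetylase complex subunits, 1 was at least 1.5-fold lower (median -0.0058). It was Chd4, the remodelling ATPase of the NuRD complex, at 723 against 1191 (-0.72), and its other probe sets ranged from -1.22 to 0.41. Mta2 (0.32), Mier2 (0.32) and Rcor3 (-0.30) stayed under 1.5-fold.

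Among 27 measured reader proteins, 1 was at least 1.5-fold lower (median 0.03). It was Mllt3, a YEATS-domain reader expressed in HSC and also counted with the HSC markers, at 108 on the array labelled knockout and 242 in wild type (-1.17). Its other 2 probe sets gave -0.97 and -0.84, so it was lower on all 3. Baz1a (0.54), Brwd3 (0.45, with -0.16 on its other probe set) and Smarca2 (-0.44) were under 1.5-fold. Of 14 measured H3-H4 chaperone genes besides Asf1a and Asf1b, 0 differed by 1.5-fold (median 0.05). The largest ratio was that of Hira, a chaperone of the variant H3.3, at 0.38, with -0.22 on its other probe set, followed by Chaf1b (-0.22), Cabin1 (0.16) and Supt16 (0.11). The 7 sirtuins, the NAD-dependent deacylases, also had 0 at 1.5-fold (median -0.13). After Sirt6, the largest ratios were those of Sirt5 (-0.38), Sirt7 (-0.17) and Sirt4 (-0.13).

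Markers of several cell types also differed between the same arrays, and their part in the values of Rest and Hdac11 was not tested. In bulk RNA, fewer cells of a type and less RNA per cell cannot be told apart. Of 14 measured HSC markers, 0 were at least 1.5-fold higher and 8 lower (median -0.63), with a summed signal of 13410 on the array labelled knockout and 16087 in wild type. Ndn (-1.58), Fgd5 (-1.38) and Mllt3 (-1.17) led them. Of 14 measured granulocyte markers, 11 were at least 1.5-fold higher and 0 lower (median 0.71). The summed signal of the list was 37497 against 23408, which includes Mmp8, under the floor on both arrays. Lcn2 (1.26), Ms4a3 (1.17) and Chil3 (0.93) led the measured markers.

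Markers of other cells were fewer above the floor. Of 8 measured B cell markers, 3 were higher and 1 lower by 1.5-fold, and the median was 0.48. Signals of the 10 listed with a probe set summed to 2282 on the array labelled knockout and 4594 in wild type. Without Ighm they summed to 1575 against 909. Ebf1 and Ms4a1 were under the floor, and Ighm (-2.38), Vpreb1 (1.78) and Igll1 (1.62) had the largest ratios. Of 5 measured T and NK cell markers, 2 were higher, led by Thy1 (0.90), Gzmb (0.85) and Il7r (0.53). The 9 listed with a probe set summed to 3171 against 2519, including Cd3d, Cd3e, Cd3g and Cd4, which were under the floor. Of 5 measured MHC class II and dendritic cell markers, 3 were lower, led by H2-Eb1 (-1.12), H2-Aa (-1.06) and Cd74 (-0.81). All 8 listed had a probe set and summed to 1622 against 2549. Ciita, Siglech and Xcr1 lay under the floor on both.

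Endothelial and stromal markers went both ways, with 2 of 5 measured genes higher and 3 lower by 1.5-fold (median -0.86). The 10 listed with a probe set summed to 1612 on the array labelled knockout and 1636 in wild type. Pdgfrb alone gave 1049 against 556 of these, so the near-equal sums depended on that gene. Cxcl12 read 57.4 on the array labelled knockout, under the floor, and 461 in wild type. Emcn (-1.50) and Pdgfrb (0.92) followed, and Cdh5, Col1a1, Col3a1, Lepr and Kitl were under the floor. Of 7 measured erythroid markers, 2 were higher and 2 lower, and the median was -0.12. Their signals summed to 3241 on the array labelled knockout and 2671 in wild type, and without Tfrc to 634 against 1076, with Car1 (-1.96), Aqp1 (-0.98) and Tfrc (0.71) leading.

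**Figure D5:**
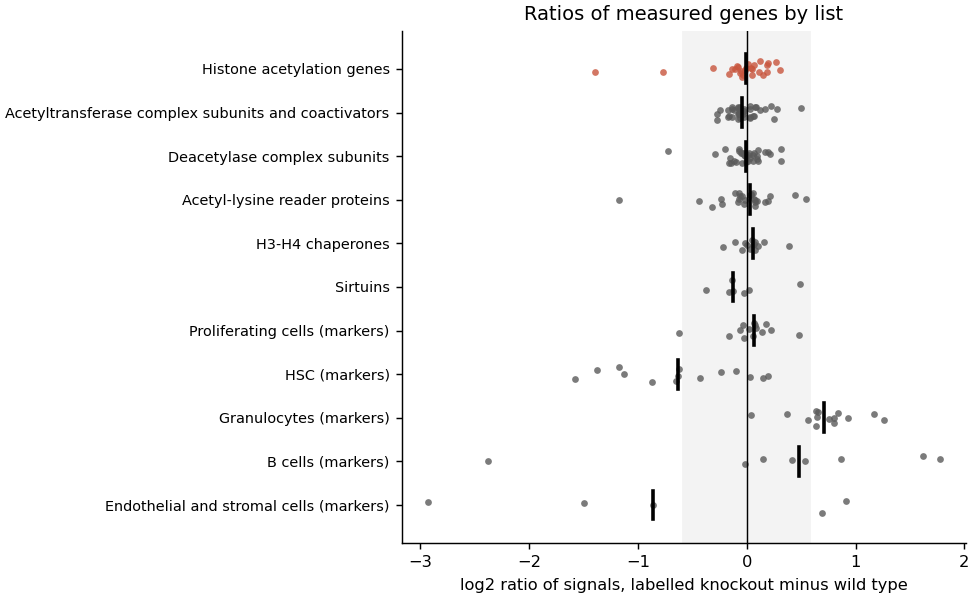
Log2 ratios (labelled knockout minus wild type) of measured genes by list, 1 point per gene, with a black bar at each median and a grey band for less than 1.5-fold. The histone acetylation genes and the other lists of the same system centre near 0, while HSC markers (median -0.63) lie mostly left of it and granulocyte markers (median 0.71) right of it.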

How the data were processed

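Each probe set has 1 linear intensity per array, deposited by the authors and made with MAS5, per the submitters' processing notes. MAS5 summarises and scales each array separately. Its version, scaling target and detection calls are not stated in the labels. The medians of the arrays (60.7 for the array labelled knockout and 60.8 for wild type) were already close, so the deposited values were only log2-transformed. Of 45037 probe sets, 34945 named 1 gene in the platform annotation, and only these were used. A gene was represented by its probe set of highest mean log2 signal. The floor was the median over probe sets of that mean, and values under it were raised to it in gene-level ratios.

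With 1 array per genotype no test, SD between samples or p-value was computed, and the number of arrays limits the precision. Genes were counted by a size of 1.5-fold. The members, lists, size and alternatives were chosen with earlier results of these data known. All members were named, with all probe sets where one above the floor differed by 1.5-fold or where 2 pointed opposite ways by over 0.3. Up to 4 genes of other pathway lists and 3 of marker lists with the largest ratios were named. The calculation was tested on simulated data in which all probe sets of a gene were given the same change. That test therefore does not bear on genes whose probe sets disagree. Python 3.11.15, numpy 2.4.6, pandas 2.3.3, statsmodels 0.14.6 (loess) and matplotlib 3.10.9 were used.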

Additional observations from a re-analysis of the deposited data

How the results depend on the processing

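No member was at least 1.5-fold higher under any of the 11 alternatives. These included quantile normalization, centring on medians, loess, a pseudocount of 1 floor, no floor, and a floor at percentile 25 or 75. The rest were the median over probe sets, leaving out _x_at and _s_at probe sets, a size of 2-fold, and the second-brightest probe set. The last was chosen after seeing the data, and genes without a second probe set above the floor kept their brightest. The Rcor1 probe set past 1.5-fold (0.78) was the dimmest of 3 by mean log2 signal, so no alternative represented the gene by it. The count of members at least 1.5-fold lower was 1 in place of 2 with the floor at percentile 75, with the median over probe sets, at a size of 2-fold and with the second-brightest probe set. That gene was Rest in the first 3 (-0.70 with the median over probe sets) and Crebbp (-0.69) in the last, where Rest had -0.0022 and Hdac11 -0.39. With the floor at percentile 25 or none the count was 3, the added gene being Hdac9, whose signals lie under the floor used in the report, so that its count there rests on dim values. The share of all genes counted ranged over the alternatives from 0.398% to 5.42% in the higher direction and from 0.572% to 3.81% in the lower, where it was 3.45% with the second-brightest probe set. The median of the members ranged from -0.07 to 0.04. Of 265 values of single members under alternatives, 257 moved by less than the SD between probe sets of a gene. The other 8 belonged to 5 members. Many values could not move, since other floors leave bright genes unchanged and probe set rules leave genes with 1 usable probe set unchanged. The count is therefore no measure of robustness. No paired analysis was possible because each genotype had 1 array, and for the same reason no array could be left out.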
